A study of Mus musculus with 32 samples.

Results

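The comparison set 4 lung libraries of pups given the oligonucleotide called scrambled 1 against 4 of pups given scrambled 2, out of 32 libraries in the series. These 8 libraries were chosen by the treatment named in their labels. All pups were C57BL/6 mice with no transgene named, and all were taken at postnatal day 14. Scrambled 1 and scrambled 2 were custom locked nucleic acid inhibitor probes from 1 supplier, and the labels describe scrambled 1 by its batch and scrambled 2 as a newer control design. Each was injected into the peritoneum at 10 mg per kg on days 1 and 3, dissolved in nuclease-free water. Neither the base sequences nor the injected volume of the oligonucleotides is given in the sources used here. The fit also used 4 libraries each of pups given the water alone (10 µl per g on days 1 and 3), of untreated pups and of pups given daily saline (25 µl per g from day 1 to day 13), all at day 14. RNA came from whole lungs perfused through the heart, and polyadenylated RNA was sequenced. The labels do not say that the samples of a group are separate animals, and the p-values therefore rest on the spread between libraries, whether biological or technical.

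Antisense probes built with locked nucleic acids pair tightly with a microRNA and keep it from its target messenger RNAs. A scrambled probe has no intended microRNA target, and serves to separate the effect of blocking a microRNA from effects of the chemistry, the injection and the solvent. Oligonucleotides are taken up by endocytosis and can be met by nucleic acid sensors such as Toll-like receptors, which switch on interferon genes. During the second week after birth the mouse lung divides its air spaces by new septa, in which myofibroblasts lay down elastin and other matrix and capillaries grow. Comparing the scrambled probes with each other asks whether the choice of control probe by itself changes the transcriptome of the lung at this stage.

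The 8 libraries held 8089452 to 10816429 exon reads, with reads in 16218 to 16638 genes. Lung genes were abundant in every library, with surfactant gene Sftpc at 8923 to 10777 counts scaled to library size (CPM) in scrambled 1 lungs and 8873 to 11219 CPM in scrambled 2 lungs. Scrambled 2 replicate 4 stood somewhat apart from its group, with the lowest correlation of log2 CPM between 2 replicates (0.979, against 0.987 as the lowest within scrambled 1). It was also the only scrambled 2 library in which genes rich in G and C lay above their mean over the day 14 libraries. Xist, the transcript that silences an X chromosome in females, was high in 2 of 4 scrambled 1 libraries and 1 of 4 scrambled 2 libraries, so the sexes were not evenly shared. Liver genes other than Trf and Cyp2e1 gave little signal. Albumin (Alb) reached 35.9 CPM in scrambled 2 replicate 2. It ran from 1.26 to 6.13 CPM in scrambled 1 lungs and from 2.52 to 7.02 CPM in the other scrambled 2 lungs.

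The lungs of the scrambled 1 and scrambled 2 groups differed in few genes, 5 of them by more than 1.5-fold. Of 14179 genes tested, 29 passed a Benjamini-Hochberg adjusted p of 0.05 in edgeR, which is 0.205% of genes. Of these, 19 were higher (0.134%) and 10 were lower (0.0705%) in scrambled 1 lungs. Among the 28 with a gene name other than a predicted one, the largest rise was that of Colq at 1.61-fold, and Slc17a2 stood at 0.445 times its scrambled 2 level. Of the 28, Colq, Zfp579, Crlf2 and Slc17a2 differed by more than 1.5-fold. The remaining gene, LOC105247254, has a predicted name and is given because its change was the largest of the 29, a choice made after its values were seen. It had 1.96, 1.38, 0.943 and 1.65 CPM in scrambled 1 lungs and 0.248, 0.227, 0.324 and 0.252 CPM in scrambled 2 lungs (log2 fold change 2.43, SE 0.52, edgeR adjusted p = 0.0452), with a mean of 1.02 CPM in water lungs. For 11599 genes, or 81.8% of those tested, the 95% interval of the fold change lay within 1.5-fold either way. CPM ranges of the groups did not overlap for 723 genes (5.10%), of which 377 (2.66%) were higher and 346 (2.44%) lower, and 1547 genes (10.9%) had an unadjusted p under 0.05. Without scrambled 2 replicate 4 the count of genes past the threshold was 205. It was 0 without scrambled 1 replicate 1 or without scrambled 2 replicate 1, where edgeR gave 1230 and 1360 genes an unadjusted p under 0.05. It was 40 without scrambled 1 replicate 2, 1 without scrambled 1 replicate 3 or replicate 4, 6 without scrambled 2 replicate 2 and 3 without scrambled 2 replicate 3. No gene passed in all 8 fits with a library left out, and H2afj passed in most, at 5 of 8.

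The starts of the genes with the smallest p in each direction are shown so that their base composition can be set beside that of the transcripts, which is described further on. They are RefSeq promoters of GRCm38.p6, from 250 bases before to 50 after the annotated start, read 5′ to 3′ on the strand of the gene, with every CG dinucleotide in capitals. The first pair belongs to genes that rose in scrambled 1 lungs, H2afj at chr6:136807998-136808297 on the plus strand and Ssbp4 at chr8:70608265-70608564 on the minus strand. The other pair belongs to genes that fell, Slc17a2 at chr13:23806743-23807042 and Itih5 at chr2:10153293-10153592, both on the plus strand.
H2afj: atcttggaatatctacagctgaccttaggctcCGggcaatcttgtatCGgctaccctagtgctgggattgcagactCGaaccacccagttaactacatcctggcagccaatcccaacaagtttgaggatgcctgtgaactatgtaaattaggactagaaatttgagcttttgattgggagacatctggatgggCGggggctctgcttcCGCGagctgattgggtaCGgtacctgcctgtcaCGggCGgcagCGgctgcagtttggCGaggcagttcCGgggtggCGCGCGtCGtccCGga
Ssbp4: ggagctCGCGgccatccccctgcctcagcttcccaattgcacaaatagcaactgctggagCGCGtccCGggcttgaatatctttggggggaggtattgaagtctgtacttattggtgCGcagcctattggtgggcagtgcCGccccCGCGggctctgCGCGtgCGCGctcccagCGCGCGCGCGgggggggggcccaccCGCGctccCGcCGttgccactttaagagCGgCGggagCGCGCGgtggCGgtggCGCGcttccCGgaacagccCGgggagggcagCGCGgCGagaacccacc
Slc17a2: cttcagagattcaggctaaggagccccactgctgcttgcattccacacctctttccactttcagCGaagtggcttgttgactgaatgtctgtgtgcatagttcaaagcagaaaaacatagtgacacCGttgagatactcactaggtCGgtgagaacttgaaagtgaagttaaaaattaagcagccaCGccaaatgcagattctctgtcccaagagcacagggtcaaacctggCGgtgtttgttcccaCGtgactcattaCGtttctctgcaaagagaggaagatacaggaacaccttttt
Itih5: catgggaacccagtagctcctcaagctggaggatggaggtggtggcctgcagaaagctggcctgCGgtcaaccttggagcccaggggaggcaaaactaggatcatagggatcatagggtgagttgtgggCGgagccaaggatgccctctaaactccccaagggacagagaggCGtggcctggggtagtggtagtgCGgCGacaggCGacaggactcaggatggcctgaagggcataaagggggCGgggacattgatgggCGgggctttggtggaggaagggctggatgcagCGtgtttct
The H2afj promoter holds 17 CG dinucleotides and the Ssbp4 promoter 35, against 7 in Slc17a2 and 9 in Itih5. The GC content of the window did not follow the direction, at 55.3% in H2afj against 60.7% in Itih5. A promoter was listed for 22 of the 28 genes. The median count was 16 among 13 genes that rose and 11 among 9 that fell, and 20 among 11249 genes tested that have one, so the median of the risen genes was not above that of genes at large. The median promoter GC content was 60.0% among the risen and 59.7% among the fallen genes. The letters GGGCGG, searched on both strands, occurred in 9 of the 13 and 5 of the 9, against 62.5% of the genes tested, and each such match holds a counted CG itself. The letters TATAAA occurred in 0 of the 13 and 2 of the 9, against 7.3%.

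Among the genes that rose, H2afj encodes a variant of histone H2A that is made outside of DNA replication (gene ID 232440, chromosome 6, 136808248 to 136810074). It had 40.3, 36.8, 35.7 and 38.9 CPM in scrambled 1 lungs and 25.9, 23.3, 26.7 and 30.8 CPM in scrambled 2 lungs. All 4 scrambled 1 libraries lay above all 4 scrambled 2 libraries, and the log2 fold change was 0.51 (SE 0.08, edgeR adjusted p = 0.00827). Colq, a collagen-like tail that anchors acetylcholinesterase (gene ID 382864, chromosome 14, 31523082 to 31577863), had 18.9, 16.9, 20.6 and 18.5 CPM in scrambled 1 lungs and 11.6, 11.6, 10.8 and 12.6 CPM in scrambled 2 lungs. The groups were well apart, and the log2 fold change was 0.69 (SE 0.12, edgeR adjusted p = 0.0156). Ssbp4, of a family of proteins that bind single-stranded DNA (gene ID 76900, chromosome 8, 70597485 to 70608380), had 59.1, 53.4, 54.5 and 49.0 CPM in scrambled 1 lungs and 37.9, 35.0, 35.3 and 43.3 CPM in scrambled 2 lungs. Its ranges did not overlap, and scrambled 2 replicate 4 was the highest of its group (0.51, SE 0.08, edgeR adjusted p = 0.00827). Eva1b, a gene for a transmembrane protein (gene ID 230752, chromosome 4, 126145704 to 126149879), had 101, 82.5, 102 and 82.7 CPM in scrambled 1 lungs and 61.5, 55.4, 56.4 and 76.1 CPM in scrambled 2 lungs (0.56, SE 0.10, edgeR adjusted p = 0.0218). Here too scrambled 2 replicate 4 came closest to the other group.

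Several genes that rose act in blood and immune cells or in endothelium. Crlf2, a chain of the receptor for the cytokine TSLP, averaged 17.1 ± 1.45 CPM in scrambled 1 lungs, with 15.9 CPM as the lowest library, and 11.0 ± 1.84 CPM in scrambled 2 lungs, with 13.2 CPM as the highest (0.63, SE 0.12, edgeR adjusted p = 0.0279; SD, n = 4 here and below). Jak3, the kinase that signals for receptors with the common gamma chain, averaged 49.6 ± 5.69 CPM in scrambled 1 lungs and 36.7 ± 3.68 CPM in scrambled 2 lungs (0.44, SE 0.09, edgeR adjusted p = 0.0424). Sipa1, which switches off the GTPase Rap1, averaged 140 ± 10.5 CPM in scrambled 1 lungs and 114 ± 3.72 CPM in scrambled 2 lungs (0.30, SE 0.06). Sox18, a transcription factor of blood and lymph vessel endothelium, had 111, 94.5, 128 and 106 CPM in scrambled 1 lungs and 85.4, 72.0, 70.5 and 86.1 CPM in scrambled 2 lungs (0.49, SE 0.09, edgeR adjusted p = 0.0279). The 3 lists of endothelial genes held no call, where 0.205% of all genes tested were called. In the general capillary list 0 of 16 genes passed, 7 lay above 0, and the summed level was 4608 to 4972 CPM in scrambled 1 lungs and 4669 to 4943 CPM in scrambled 2 lungs. In the list of large vessels and lymphatics 0 of 19 passed and 11 lay above 0. In that of aerocytes, the capillary cells of gas exchange, 0 of 14 passed and 11 lay above 0 at a median of 0.03, and the summed level was 5342 to 5679 CPM in scrambled 1 lungs and 5139 to 5606 CPM in scrambled 2 lungs.

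The other genes that rose have varied roles. Disp2, a relative of the protein that releases hedgehog ligands from cells, had 36.1, 33.6, 32.4 and 33.9 CPM in scrambled 1 lungs and 22.6, 28.0, 24.7 and 22.4 CPM in scrambled 2 lungs (0.47, SE 0.09, edgeR adjusted p = 0.0279). Its 8 values split cleanly by group. It was the only called member of 14 hedgehog genes tested, where 0.134% of all genes were called higher. Irf2bp1, a corepressor that binds the interferon regulatory factor IRF2, averaged 41.2 ± 1.83 CPM in scrambled 1 lungs and 31.7 ± 1.82 CPM in scrambled 2 lungs (0.38, SE 0.07). Dmpk, the kinase of myotonic dystrophy, Tcirg1, a subunit of the proton pump of lysosomes and osteoclasts, and Tmem259, a protein of the endoplasmic reticulum, rose by 0.37, 0.35 and 0.31 on the log2 scale. Ushbp1 (0.31), Exoc3l (0.37), Pced1b (0.44) and Ccdc85b (0.47) also rose, the last with 74.4% of its exon reads in the unique count. Pced1b overlaps Amigo2 on the opposite strand over 208 bases, and the handling of strand in the counts is not given in the sources used here. Zfp579, a zinc finger gene, was the exception among the 28 in that its groups overlapped, with 67.9, 51.6, 71.2 and 65.2 CPM in scrambled 1 lungs and 42.0, 32.4, 34.8 and 52.0 CPM in scrambled 2 lungs (0.67, SE 0.13, edgeR adjusted p = 0.0424).

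**Figure D1:**
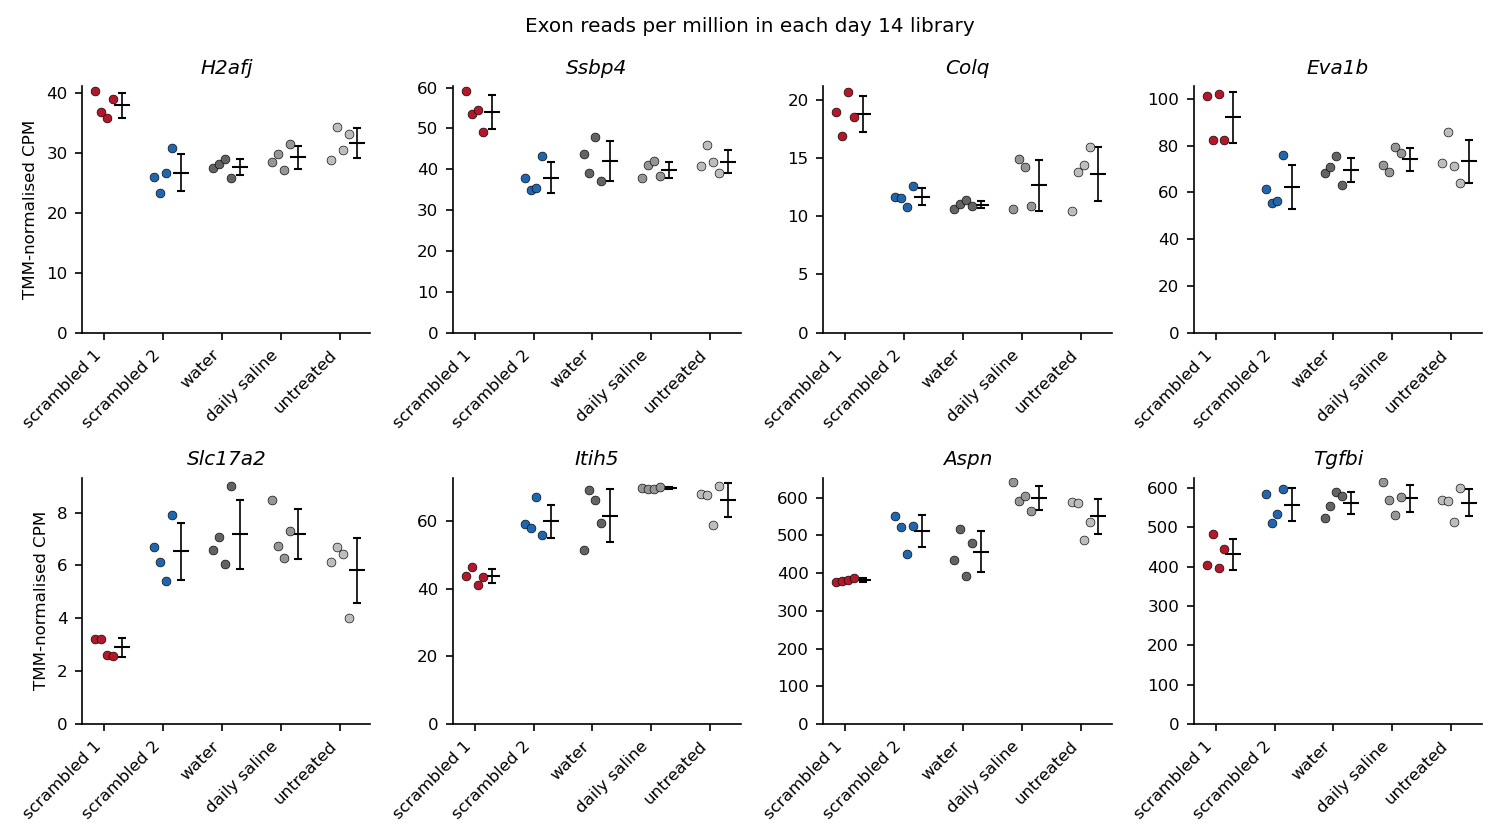
Each point is 1 day 14 library, in TMM-normalised CPM of exon reads, for 4 genes that rose (top row) and 4 that fell (bottom row) in scrambled 1 lungs; bars are mean ± SD (n = 4). Scrambled 1 stands apart from scrambled 2 in all 8 panels, as in Colq with 16.9 to 20.6 CPM against 10.8 to 12.6 CPM. The genes were chosen for that gap. Scrambled 2 is not near water in every panel. Aspn averaged 381 CPM in scrambled 1, 512 CPM in scrambled 2 and 456 CPM in water lungs.

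Of the 10 genes that fell, Slc17a2 changed most. It belongs to a family of sodium-dependent phosphate transporters (gene ID 218103, chromosome 13, 23806941 to 23825191). It had 3.23, 3.21, 2.62 and 2.56 CPM in scrambled 1 lungs and 6.69, 6.12, 5.40 and 7.93 CPM in scrambled 2 lungs. The lowest scrambled 2 library was above the highest scrambled 1 library, and the log2 fold change was -1.17 (SE 0.19, edgeR adjusted p = 0.00827). Of 5 liver genes tested 0 passed, 4 lay below 0 and 3 had an unadjusted p under 0.05 in edgeR, at a median of -0.69. Their summed level was 263 to 302 CPM in scrambled 1 lungs and 269 to 408 CPM in scrambled 2 lungs. Most of that sum was Trf, at 228 to 273 CPM in scrambled 1 and 243 to 337 CPM in scrambled 2 lungs. Slc17a2 was highest in scrambled 2 replicate 4 and Alb in scrambled 2 replicate 2, and the part of liver RNA in the fall of Slc17a2 was not tested.

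Genes of the extracellular matrix make up several of the other falls. Itih5, a heavy chain that binds hyaluronan (gene ID 209378, chromosome 2, 10153536 to 10256529), had 43.9, 46.5, 41.3 and 43.6 CPM in scrambled 1 lungs and 59.1, 58.0, 67.1 and 56.0 CPM in scrambled 2 lungs (-0.46, SE 0.08, edgeR adjusted p = 0.0156). The highest scrambled 1 library was below the lowest scrambled 2 library. Aspn, a small leucine-rich proteoglycan that binds collagen (gene ID 66695, chromosome 13, 49544443 to 49567565), had 377, 380, 381 and 388 CPM in scrambled 1 lungs and 550, 521, 450 and 525 CPM in scrambled 2 lungs (-0.42, SE 0.08, edgeR adjusted p = 0.0182). The scrambled 1 values hardly varied. Only 26.3% of the exon reads of Aspn are in the unique count, and it lies opposite Cenpp. With unique reads alone its log2 fold change was -0.40 (SE 0.08, edgeR adjusted p = 0.028). Tgfbi, a matrix protein induced by TGF-beta (gene ID 21810, chromosome 13, 56609603 to 56639339), had 403, 482, 396 and 445 CPM in scrambled 1 lungs and 585, 510, 534 and 598 CPM in scrambled 2 lungs (-0.37, SE 0.07, edgeR adjusted p = 0.0258). Thbs2, a matricellular thrombospondin, averaged 93.2 ± 8.88 CPM in scrambled 1 lungs and 118 ± 7.15 CPM in scrambled 2 lungs (-0.35, SE 0.07, edgeR adjusted p = 0.0424). Loxl2, which cross-links collagen and elastin, averaged 237 ± 22.9 CPM in scrambled 1 lungs and 297 ± 20.2 CPM in scrambled 2 lungs (-0.33, SE 0.07, edgeR adjusted p = 0.0471). With unique reads, which are 66.7% of its exon reads, the adjusted p of Loxl2 in edgeR was 0.131.

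The matrix gene lists held no call beyond the genes just named, where 0.0705% of all genes tested were called lower. Of 25 collagen genes tested 0 passed, 16 lay above 0, and the median log2 fold change was 0.04, against -0.00 for all genes tested. Of 27 genes for elastic fibres and cross-linking Loxl2 passed, 13 lay above 0 and the median was -0.00. The elastin gene Eln itself averaged 10373 ± 377 CPM in scrambled 1 lungs and 9994 ± 2047 CPM in scrambled 2 lungs, which is less than the spread between replicates. Of 17 hyaluronan genes Itih5 passed and 13 lay below 0, at a median of -0.08. Of 19 matrix proteases and their inhibitors 0 passed, 12 lay below 0 and the median was -0.08. Of 19 genes of smooth muscle and myofibroblasts Aspn and Tgfbi passed, 14 lay below 0 and the median was -0.06. The summed level of that list was 2904 to 3079 CPM in scrambled 1 lungs and 3204 to 3502 CPM in scrambled 2 lungs. These sums do not overlap between the groups, and Aspn and Tgfbi are part of them. Without Aspn and Tgfbi the sums did overlap. The other 17 genes summed to 2042 to 2296 CPM in scrambled 1 lungs and 2130 to 2379 CPM in scrambled 2 lungs. Acta2, the smooth muscle actin, averaged 396 ± 41.7 CPM in scrambled 1 lungs and 402 ± 37.8 CPM in scrambled 2 lungs. In whole lung RNA, fewer cells of a type and less RNA per cell cannot be told apart.

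The remaining falls were in enzymes and a kinase. Cat, catalase, had 163, 174, 161 and 168 CPM in scrambled 1 lungs and 201, 211, 201 and 195 CPM in scrambled 2 lungs (-0.28, SE 0.06, edgeR adjusted p = 0.0424). It was the only called gene among 22 antioxidant and Nrf2 target genes tested, of which 14 lay below 0. Of all genes tested, 0.0705% were called lower. Nceh1, which splits cholesterol esters, averaged 42.6 ± 1.45 CPM in scrambled 1 lungs and 53.4 ± 2.49 CPM in scrambled 2 lungs (-0.33, SE 0.06, edgeR adjusted p = 0.0279). Prkci, an atypical protein kinase C of epithelial polarity, averaged 110 ± 2.44 CPM in scrambled 1 lungs and 132 ± 8.77 CPM in scrambled 2 lungs (-0.27, SE 0.06). Prss35, of the trypsin-like protease family, averaged 83.9 ± 7.42 CPM in scrambled 1 lungs and 109 ± 11.1 CPM in scrambled 2 lungs (-0.38, SE 0.08). The ranges of the groups did not overlap for any of these 4 genes.

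The water and untreated libraries serve as references for the side on which each difference lay, and they did not give the same side for every gene. Nceh1 stood at -0.26 in scrambled 1 and 0.07 in scrambled 2 lungs against water on the log2 scale. Against untreated it stood at -0.06 and 0.27. All these comparisons share libraries, and the 28 genes were picked by a contrast that holds the same scrambled libraries, so their values are given side by side as a description. Scrambled 1 had the highest of the 5 group means in 18 of the 18 genes that rose and the lowest in 10 of the 10 that fell. Scrambled 2 had the lowest mean in 11 of the 18 and the highest in 2 of the 10. In 25 of the 28 genes scrambled 1 lay farther from water than scrambled 2 did, and in 21 it lay farther from untreated.

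Against water, 6 of the 28 genes passed in scrambled 1 lungs, 3 higher and 3 lower, where 17 genes (0.120%) passed in all, 13 higher (0.0917%) and 4 lower (0.0282%). These 6 were Colq, Disp2, H2afj, Slc17a2, Itih5 and Tgfbi. Xist was high in 2 of 4 scrambled 1 libraries and in 0 of 4 water libraries, and with Xist as a covariate 2 genes passed, Slc17a2 and Itih5. Water replicate 3 stood apart in markers of other tissues, with 728 CPM of adipose tissue, 279 CPM of skeletal muscle and 163 CPM of cartilage genes against 22.3 to 60.3, 30.4 to 41.7 and 30.6 to 49.2 CPM in the other water libraries. Without it 20 genes passed, 7 of them among the 28. The count was 39 without scrambled 1 replicate 2, 9 without replicate 1, 4 without replicate 3 and 3 without replicate 4, and 6 and 7 without water replicates 2 and 4. Slc17a2 and Itih5 passed in each of these fits. In scrambled 2 lungs 0 of the 28 and 0 of all genes (0%) passed against water, with or without water replicate 3 or with Xist as a covariate, and edgeR gave 755 genes an unadjusted p under 0.05. H2afj averaged 37.9 ± 2.05 CPM in scrambled 1, 26.7 ± 3.10 CPM in scrambled 2 and 27.6 ± 1.31 CPM in water lungs. Slc17a2 averaged 2.91 ± 0.364 CPM in scrambled 1, 6.53 ± 1.07 CPM in scrambled 2 and 7.18 ± 1.29 CPM in water lungs. In both genes scrambled 2 lay within 1 SD of water and scrambled 1 did not. Zfp579 behaved otherwise, with 64.0 ± 8.60 CPM in scrambled 1, 40.3 ± 8.79 CPM in scrambled 2 and 56.3 ± 6.40 CPM in water lungs, so that scrambled 2 was farther from water (-0.49, SE 0.13, edgeR adjusted p = 0.619) than scrambled 1 (0.18, SE 0.13, edgeR adjusted p = 0.626). Aspn lay below water in scrambled 1 lungs (-0.26, SE 0.08, edgeR adjusted p = 0.177) and above it in scrambled 2 lungs (0.16, SE 0.08, edgeR adjusted p = 0.920), and neither passed.

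Against untreated, 8 of the 28 genes passed in scrambled 1 lungs, 1 higher and 7 lower, where 43 genes (0.303%) passed in all, 19 higher (0.134%) and 24 lower (0.169%). The higher one was Ssbp4 (0.36, SE 0.08, edgeR adjusted p = 0.0484). The lower ones were Prss35 (-0.63, SE 0.08), Itih5 (-0.60, SE 0.08), Aspn (-0.53, SE 0.08), Thbs2 (-0.48, SE 0.07), Tgfbi (-0.38, SE 0.07), Loxl2 (-0.37, SE 0.07) and Slc17a2 (-1.01, SE 0.19). Xist was high in 3 of 4 untreated libraries, and with it as a covariate 39 genes passed, with Jak3 in place of Ssbp4 among the 28. With single libraries left out the count ran from 6, without scrambled 1 replicate 3, to 35, without scrambled 1 replicate 4. It was 12 without scrambled 1 replicate 1 and 22 without replicate 2, and 13, 7, 21 and 18 without untreated replicates 1 to 4. Itih5, Aspn, Prss35 and Thbs2 passed in all of these fits. The matrix genes of this set were thus lower in scrambled 1 lungs than in scrambled 2 and in untreated lungs. Of them, Itih5 and Tgfbi also passed against water. Aspn (-0.26, edgeR adjusted p = 0.177), Thbs2 (-0.28, edgeR adjusted p = 0.113) and Loxl2 (-0.23, edgeR adjusted p = 0.193) lay below water without passing. Their water means were themselves below untreated, at 456 against 550, 113 against 130 and 279 against 305 CPM. In scrambled 2 lungs 0 of the 28 and 0 of all genes (0%) passed against untreated, and edgeR gave 936 genes an unadjusted p under 0.05. The smallest adjusted p among the 28 was 0.383 there, for Nceh1, which lay 0.27 above untreated (SE 0.06).

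**Figure D2:**
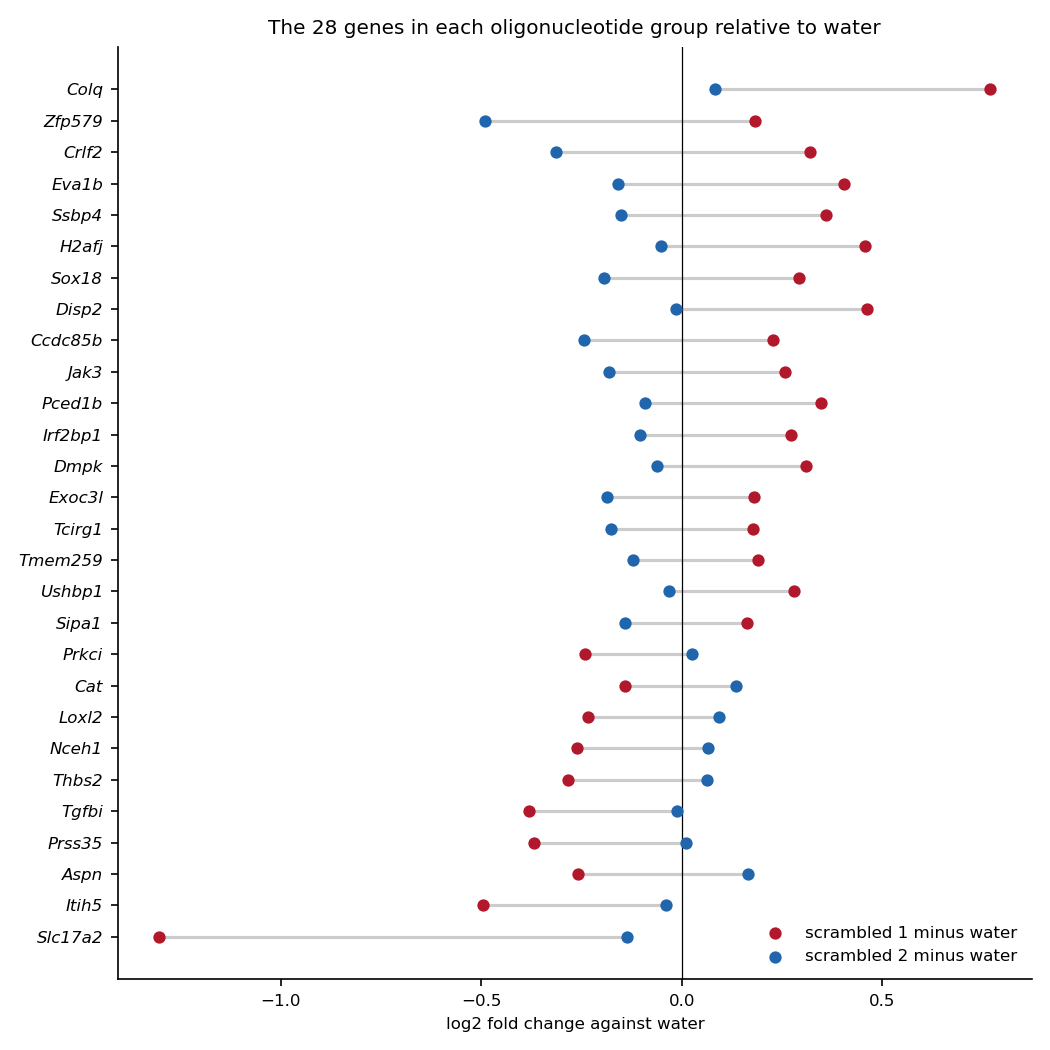
Log2 fold change of each of the 28 genes against water, for scrambled 1 (red) and scrambled 2 (blue), with a grey line joining the 2 values of a gene. Colq stands at 0.77 in scrambled 1 and 0.08 in scrambled 2 lungs, and Slc17a2 at -1.30 in scrambled 1 and -0.14 in scrambled 2 lungs; the genes were chosen for the gap between the points.

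Base composition moved with the fold changes. The fold changes of all genes rose with the GC content of the transcript, with a Spearman rho of 0.322 across the 14104 genes that have a GENCODE transcript, and fell with transcript length (rho -0.286); genes of 1 library share its preparation and are not independent. Among the 1411 genes of highest GC content (57.9% and above) the median log2 fold change was 0.12, and among the 1411 of lowest GC content (41.4% and below) it was -0.05. The 18 genes that rose had a median GC content of 60.9%, all 18 above the 49.9% median of all genes and 15 above the upper quartile of 54.6%. The 10 genes that fell had a median of 46.8%, and 8 lay below the median of all genes.

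The trend differed between libraries. A slope of expression on GC content, in log2 units per 10 percentage points, was 0.0194 to 0.122 in the 4 scrambled 1 libraries and -0.110 to 0.0761 in the 4 scrambled 2 libraries, in which only replicate 4 was above 0. Water libraries ran from -0.0728 to 0.102 and untreated ones from -0.0697 to 0.0532, with both signs in each of these groups. When the GC trend of each library was removed, 8 genes passed in edgeR and 7 of them were among the 28, namely Eva1b, Slc17a2, H2afj, Itih5, Colq, Tgfbi and Aspn. The 28 genes, which were picked by the same contrast, kept their direction. The median log2 fold change of the 18 risen genes was 0.31 with the trend removed and 0.46 before, and that of the 10 fallen genes was -0.35 with it removed and -0.36 before. The fallen genes thus changed less with this step than the risen ones, of which Ssbp4 stood at 0.29, Irf2bp1 at 0.16, Tmem259 at 0.14 and Sipa1 at 0.14, while H2afj stood at 0.47 and Colq at 0.63. With the trend removed and scrambled 2 replicate 4 left out, 43 genes passed. The part of the preparation of the libraries in the trend was not tested.

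**Figure D3:**
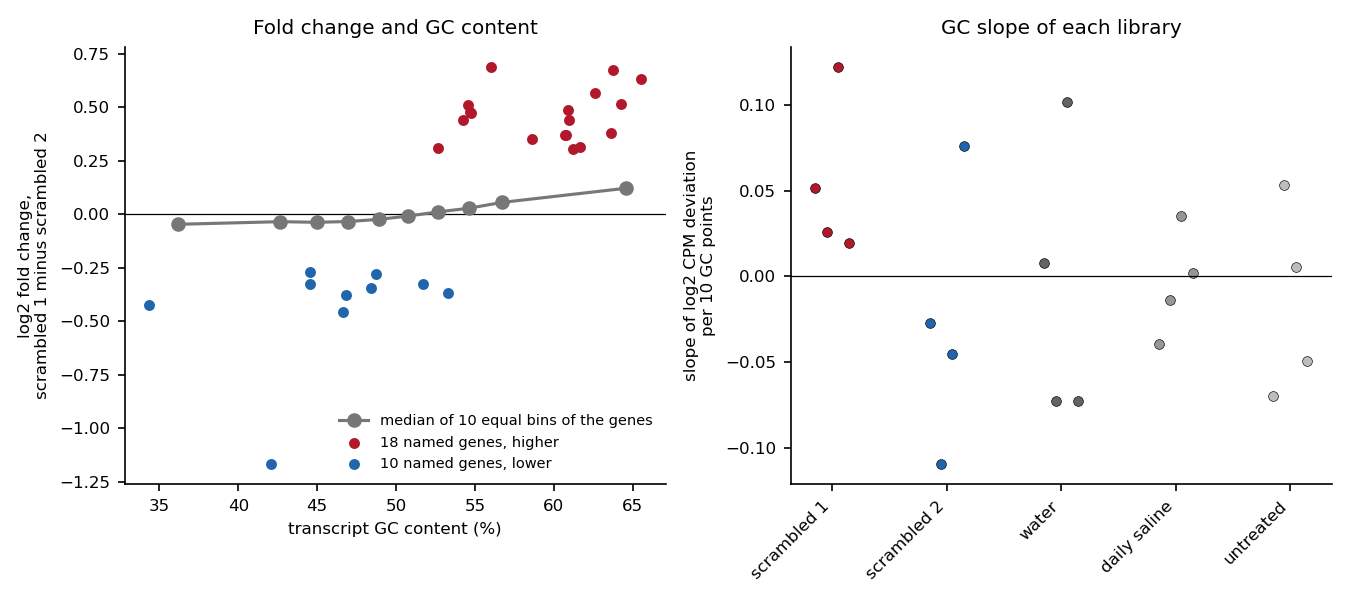
Left, log2 fold change (scrambled 1 minus scrambled 2) against transcript GC content for the 18 risen genes (red), the 10 fallen genes (blue) and the medians of 10 equal bins of all genes by GC content (grey line). Right, the slope of log2 CPM on GC content in each day 14 library, which was above 0 in 4 of 4 scrambled 1 and 1 of 4 scrambled 2 libraries.

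**Figure D4:**
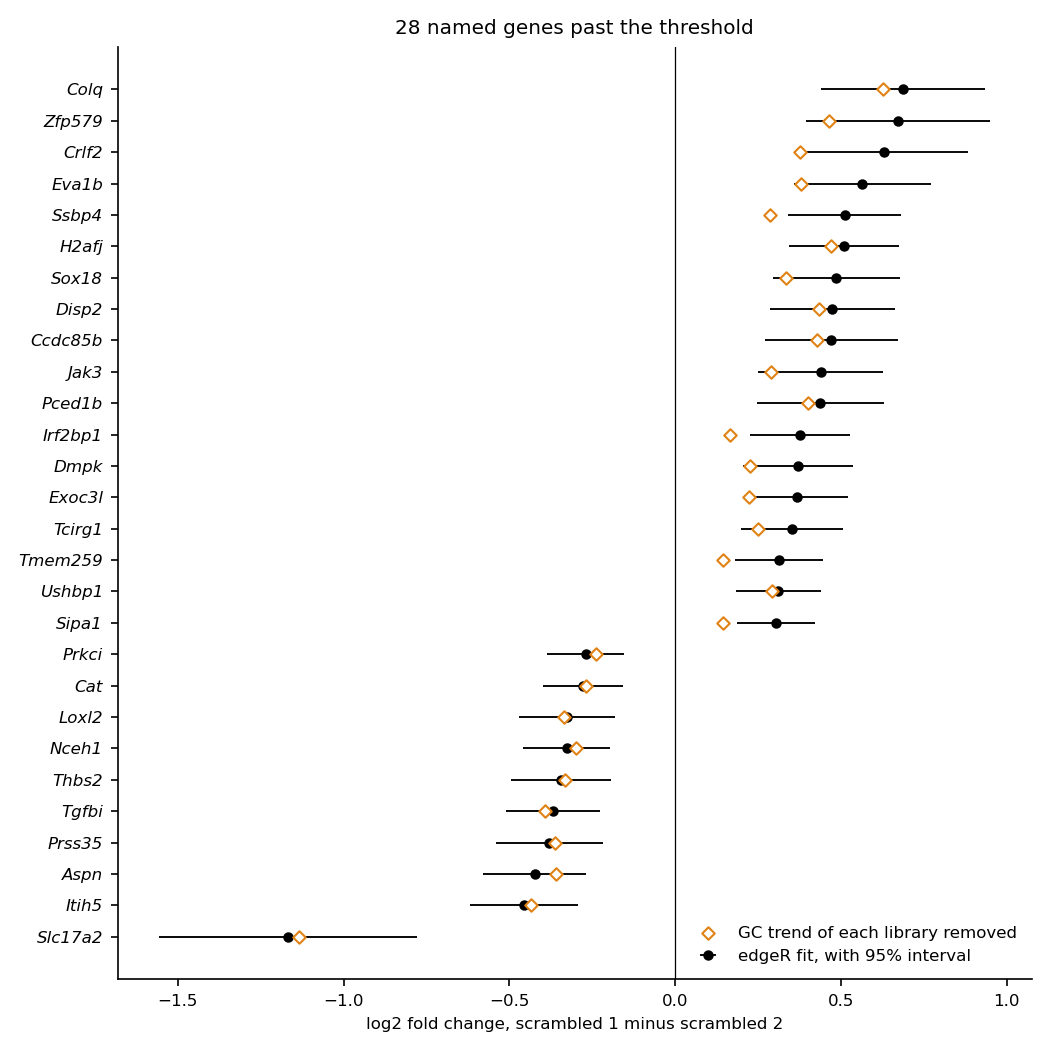
Log2 fold change of each of the 28 genes, scrambled 1 minus scrambled 2, from edgeR with its 95% interval (black) and with the GC trend of each library removed (open diamonds). Most diamonds of risen genes lie nearer to 0 than the points, as for Ssbp4 at 0.29 beside 0.51, and those of fallen genes stay close to theirs.

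Xist and the share of intronic reads were also used as covariates. With Xist 13 genes passed, all among the 28. Among the libraries low in Xist (2 scrambled 1 and 3 scrambled 2) the median log2 ratio was 0.41 for the risen and -0.41 for the fallen genes, and among those high in Xist (2 scrambled 1 and 1 scrambled 2) it was 0.45 and -0.29. The direction of these medians is fixed by the choice of the genes, since the groups do not overlap in 27 of the 28. Intronic reads made up 13.9 ± 0.625% of reads in scrambled 1 lungs and 12.4 ± 1.15% in scrambled 2 lungs. That difference of 1.55 percentage points was larger than the SD of either group. An exact two-sided permutation test gave p = 0.114, with 0.0286 as the smallest p that 4 against 4 allow. With this share as a covariate 64 genes passed, 21 of them among the 28.

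Genes through which an oligonucleotide could be noticed by the tissue gave no call. Among 32 nucleic acid sensors and their adaptors 0 passed, where 0.205% of all genes did, and 21 lay above 0 at a median of 0.08. Unc93b1, which carries Toll-like receptors to endosomes, averaged 60.8 ± 3.80 CPM in scrambled 1 lungs and 52.1 ± 3.91 CPM in scrambled 2 lungs (0.22, SE 0.07, edgeR adjusted p = 0.243). Irf7 averaged 16.2 ± 1.05 CPM in scrambled 1 lungs and 12.7 ± 0.842 CPM in scrambled 2 lungs (0.35, SE 0.12, edgeR adjusted p = 0.301). Oas2, a sensor of double-stranded RNA, averaged 3.56 ± 0.682 CPM in scrambled 1 lungs and 1.94 ± 0.468 CPM in scrambled 2 lungs (0.87, SE 0.33, edgeR adjusted p = 0.322). Water and untreated lungs, at 3.38 and 3.58 CPM of Oas2, were near scrambled 1, so here it was scrambled 2 that stood lower.

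Among 31 interferon-stimulated genes tested 0 passed, where 0.205% of all genes did, and 29 lay above 0, at a median of 0.14. Irf9, a subunit of the factor that drives these genes, averaged 54.6 ± 4.50 CPM in scrambled 1 lungs and 45.1 ± 1.71 CPM in scrambled 2 lungs (0.28, SE 0.08, edgeR adjusted p = 0.177), with 50.2 CPM in water and 52.0 CPM in untreated lungs. Stat2 and Rtp4 had log2 fold changes of 0.22 (SE 0.08, edgeR adjusted p = 0.295) and 0.38 (SE 0.15, edgeR adjusted p = 0.340). Single genes of this list were thus not told apart from no change. For 22 of the 31 the 95% interval lay within 1.5-fold, against 81.8% of all genes tested.

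The machinery that handles microRNAs was also without a call, where 0.205% of all genes tested were called. At that share most lists of this size would hold none. Of 23 genes for microRNA processing and Argonaute proteins 0 passed, 18 lay below 0 and the median was -0.06. For 22 of them the 95% interval lay within 1.5-fold, as it did for 81.8% of all genes tested. The exonuclease Xrn2 stood at -0.13 on the log2 scale (SE 0.06, edgeR adjusted p = 0.425), and the terminal uridyl transferases Zcchc11 and Zcchc6 had -0.18 (SE 0.09, edgeR adjusted p = 0.444) and -0.13 (SE 0.07, edgeR adjusted p = 0.496). Of 22 genes for oligonucleotide uptake and trafficking 0 passed and 16 lay below 0, at a median of -0.03. The scavenger receptors Stab1 and Scarb1 had 0.15 (SE 0.07, edgeR adjusted p = 0.448) and 0.10 (SE 0.06, edgeR adjusted p = 0.515), and the receptor Egfr had -0.23 (SE 0.12, edgeR adjusted p = 0.472).

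Lists for toxic or inflammatory responses were likewise without a call, where 0.205% of all genes tested were called. Of 19 targets of p53 tested 0 passed and 11 lay above 0 at a median of 0.03, with Phlda3 at 0.20 (SE 0.07, edgeR adjusted p = 0.301), Bbc3 at 0.27 (SE 0.11, edgeR adjusted p = 0.383) and Mdm2 at -0.13 (SE 0.06, edgeR adjusted p = 0.392). Of 22 complement and coagulation genes 0 passed and 15 lay above 0 at a median of 0.07. The complement factor gene Cfb averaged 18.0 ± 9.97 CPM in scrambled 1 lungs and 11.7 ± 1.97 CPM in scrambled 2 lungs, and of the scrambled 1 libraries replicate 3 held 32.9 CPM and the others 12.8 to 13.3 CPM. C1s1 and Plat had 0.12 (SE 0.06, edgeR adjusted p = 0.493) and -0.11 (SE 0.06, edgeR adjusted p = 0.533). Of 16 cytokines and chemokines tested 0 passed and 8 lay above 0. Cxcl14 came closest at 67.0 ± 5.72 CPM in scrambled 1 lungs and 53.9 ± 6.83 CPM in scrambled 2 lungs (0.32, SE 0.08, edgeR adjusted p = 0.137). Saa3 had 1.09 (SE 0.42, edgeR adjusted p = 0.337) and Ccl5, with 32.4% unique reads, 0.39 (SE 0.31, edgeR adjusted p = 0.677), both at under 3 CPM.

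**Figure D5:**
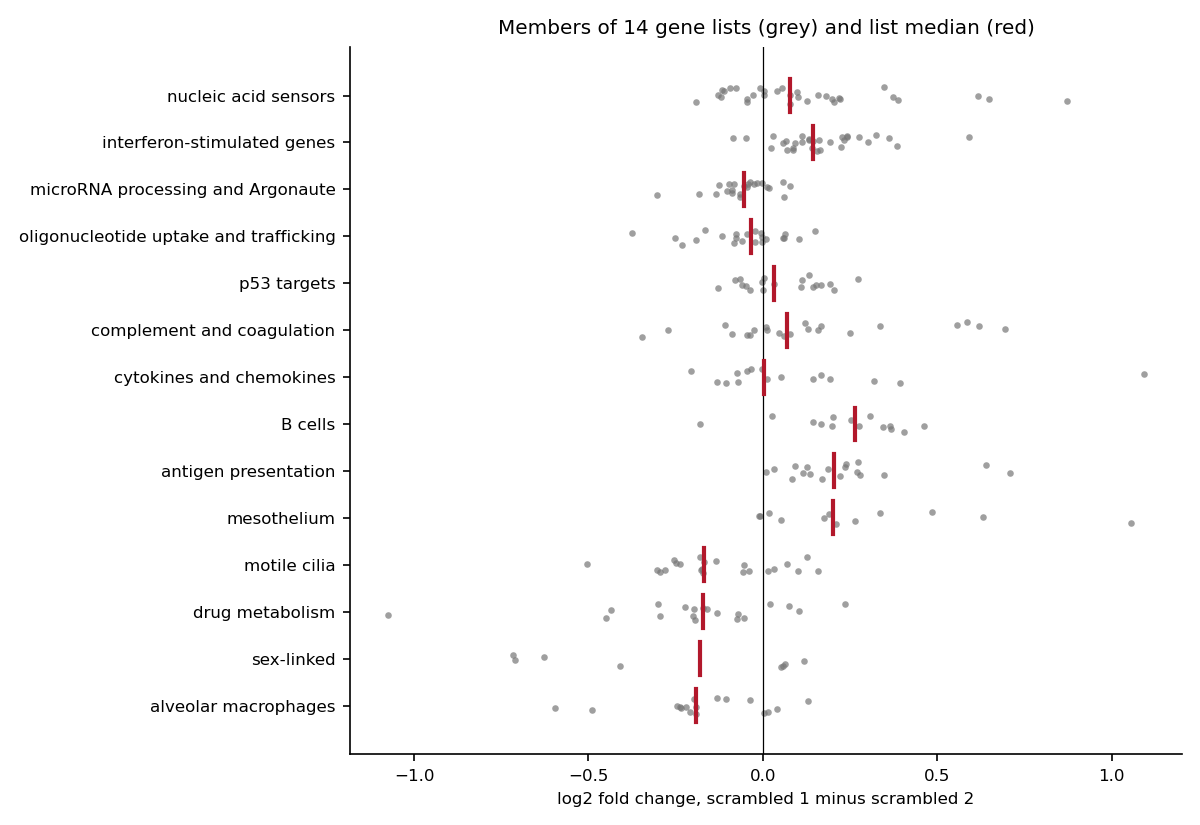
Log2 fold changes (scrambled 1 minus scrambled 2) of the tested members of 14 gene lists (grey points) with the median of each list (red bar). The 7 lists at the top concern responses to oligonucleotides, and the other 7 have the 3 highest and 4 lowest medians of lists with at least 8 genes tested, from B cells at 0.26 to alveolar macrophages at -0.19; no member of these 14 lists passed the threshold.

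Of the other lists with at least 8 genes tested, those of B cells, antigen presentation and mesothelium had the highest medians. Of 14 B cell genes 13 lay above 0 (median 0.26), and their summed level was 261 to 295 CPM in scrambled 1 lungs and 209 to 248 CPM in scrambled 2 lungs. Those ranges do not overlap. Water lungs held 226 to 271 CPM, untreated lungs 195 to 232 CPM and daily saline lungs 181 to 246 CPM. Cd22 and Faim3 had log2 fold changes of 0.36 (SE 0.11, edgeR adjusted p = 0.231) and 0.46 (SE 0.15, edgeR adjusted p = 0.264). Jak3 and Crlf2, which rose, are genes that lymphocytes and other blood cells use, and the part of B cells in those rises was not tested. All 18 genes of antigen presentation lay above 0 (median 0.20), with Tap2 at 0.24 (SE 0.08, edgeR adjusted p = 0.285), Tapbp at 0.17 (SE 0.06, edgeR adjusted p = 0.305) and H2-Oa, with 34.4% unique reads, at 0.71 (SE 0.25, edgeR adjusted p = 0.305). Their summed level was 2277 to 2530 CPM in scrambled 1 lungs and 1977 to 2239 CPM in scrambled 2 lungs, with 1881 to 2271 CPM in water and 1900 to 2549 CPM in untreated lungs. Mesothelial genes lay above 0 in 10 of 12 cases (median 0.20), with wide errors, as for Lrrn4 (0.63, SE 0.31, edgeR adjusted p = 0.466), Wt1 (1.05, SE 0.54, edgeR adjusted p = 0.486) and Aldh1a2 (0.49, SE 0.26, edgeR adjusted p = 0.516).

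Alveolar macrophage, sex-linked, drug metabolism and motile cilia genes had the lowest medians among lists with at least 8 genes tested. Of 17 alveolar macrophage genes 13 lay below 0 (median -0.19), with summed levels of 522 to 966 CPM in scrambled 1 lungs and 487 to 1026 CPM in scrambled 2 lungs, which overlap widely. In that list Krt79 and Marco had -0.60 (SE 0.41, edgeR adjusted p = 0.617) and -0.49 (SE 0.35, edgeR adjusted p = 0.634), and Car4, which endothelium also uses, had 0.13 (SE 0.07, edgeR adjusted p = 0.467). Of 8 sex-linked genes 4 lay above 0 and 4 below (median -0.18). Its members on the X chromosome with the smallest p were Kdm5c at 0.12 (SE 0.20, edgeR adjusted p = 0.878), Ddx3x at 0.05 (SE 0.13, edgeR adjusted p = 0.924) and Eif2s3x, with 5.79% unique reads, at 0.06 (SE 0.21, edgeR adjusted p = 0.951). Of 19 genes of drug metabolism 15 lay below 0 (median -0.17). Ces1d had -0.20 (SE 0.08, edgeR adjusted p = 0.363), Cyp2e1 had 0.24 (SE 0.11, edgeR adjusted p = 0.426), and Ugt1a6a, with 12.2% unique reads, had -1.08 (SE 0.38, edgeR adjusted p = 0.305). Of 22 genes of motile cilia 16 lay below 0 (median -0.17), with Rsph4a at -0.50 (SE 0.23, edgeR adjusted p = 0.426), Dnah11 at -0.25 (SE 0.15, edgeR adjusted p = 0.546) and Tppp3 at 0.16 (SE 0.08, edgeR adjusted p = 0.470). In these 7 lists 0 genes passed, where 0.205% of all genes tested did. Alveolar epithelium showed no call either, with 0 of 16 type 1 and 0 of 20 type 2 genes past the threshold.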

How the data were processed

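Polyadenylated RNA was sequenced in 32 libraries, and the submitters' processing notes name bcl2fastq 2.0 for demultiplexing. Which aligner, build and strand setting were used is not given in the sources used here. For 46165 gene records, the authors deposited raw counts of exon, intron and gene reads, in a total and a unique version. The TPM values that the authors computed are also in the files, and entered no test. Coordinates are those of the files, and 97.4% of 43003 gene IDs found in RefSeq GRCm38.p6 start within 5 kb of that table.

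In R 4.3.3, edgeR 4.0.16 was fitted to the total exon counts of the 20 day 14 libraries, with group as the only term, TMM scaling, low genes removed by filterByExpr and the robust quasi-likelihood F test. A gene passed the threshold at a Benjamini-Hochberg adjusted p under 0.05 over the 14179 genes, whatever its fold. CPM values are TMM-normalised, the SE is the size of the log2 fold change over the root of F, and intervals are at 95%. The intronic share used an exact permutation test in scipy 1.17.1.

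All genes past the threshold were named except 1 with a predicted name. Of 60 gene lists, those of response to oligonucleotides and the 3 with the highest and 3 with the lowest median (at least 8 genes tested) are described with up to 3 members of smallest p, Y-linked genes passed over. Motile cilia, the next lowest, were kept, along with others that hold called genes or the cell types at hand. 1 list member that this rule names is not reported here. Lists got no test. The members and lists were chosen with earlier results of these data known. GC content and length came from GENCODE M21 transcripts, and the GC trend was removed as a spline for each library, used as an offset.

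Pairs of replicates differed by a chi-square of 3.16 to 10.6 per gene, above sampling noise. This does not show that the libraries come from separate animals, and each library was counted once. The fits were tested on simulated data. Alternatives were DESeq2 1.42.0, limma 3.58.1 (voom with quality weights), other scalings, filters, read classes, sample sets and covariates, and each library left out.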

Additional observations from a re-analysis of the deposited data

Results flagged for a closer look

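In 5 of 142 groups of 4 libraries examined for single genes or the intronic share, 1 library lay far from the other 3. Chance gives about 1 such group in 20, a share that 5 of 142 does not exceed. None of the 5 genes passed the threshold between scrambled 1 and scrambled 2. Scrambled 1 replicate 3 held 32.9 CPM of the complement gene Cfb against 12.8 to 13.3 CPM in the others of its group. The same library held 32.4 CPM of the mesothelial gene Lrrn4 against 15.6 to 17.3 CPM, and 8.39 CPM of the B cell gene Faim3 against 9.52 to 9.70 CPM. Scrambled 2 replicate 3 held 33.7 CPM of the receptor gene Egfr against 28.4 to 29.1 CPM. Scrambled 2 replicate 4 held 58.8 CPM of Zcchc11 against 69.8 to 71.5 CPM.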

How the results depend on the processing

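The count of genes past the threshold varied widely with the processing. Against 29 in the main setting, DESeq2 called 65 genes, limma-voom 120, the 8 libraries alone 6, all 32 libraries 17, intron reads 7 (0 shared with the 29), Xist as a covariate 13 and the intronic share as a covariate 64. A test against a 1.2-fold change called 0 genes in edgeR, with 182 at an unadjusted p under 0.05. Among alternatives chosen after seeing the data, removal of the GC trend left 8 calls, of GC and length trends 18, and of the GC trend with Xist as a covariate 4. Leaving out the library of highest GC slope in each group left 11. With each library left out the count ran from 0 to 205. The replicate numbers of the labels gave no sign of pairing. Deviations of same-numbered libraries correlated at -0.0485 to 0.108, and those of differently numbered ones at -0.233 to 0.162. These correlations cannot exclude a pairing, and the replicate block gave 18 calls. The share of higher genes among the calls was 65.5%, and alternatives moved it both ways. It was 48.4% with the intronic share as a covariate, 4 of 8 genes with the GC trend removed and 53.8% with Xist as a covariate. In limma-voom it was 70.8%, without scrambled 2 replicate 4 70.2%, and without the library of highest GC slope in each group 81.8%.

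The 28 named genes kept their direction in every setting but intron reads, where 19 of 23 did. Outside intron reads that is mostly fixed in advance. The genes were picked by this contrast, nearly all have groups that do not overlap, and the settings share its scrambled libraries. In intron reads Itih5 stood at 0.38, Nceh1 at 0.088, Loxl2 at 0.10 and Disp2 at -0.35. Of list genes that passed in no case, intron reads also turned Cfb to -0.28, Cyp2e1 to -0.10, Zcchc6 to 0.012, Dnah11 to 0.053, Unc93b1 to -0.056, Phlda3 to -0.35 and Mdm2 to 0.11. Phlda3 stood at -0.0024 with the GC and length trends removed. The X-linked genes, all near 0, changed sign more often. Ddx3x stood at -0.029 and Eif2s3x at -0.055 in limma-voom, and Ddx3x at -0.097 in intron reads. With Xist as a covariate Kdm5c, Ddx3x and Eif2s3x stood at -0.060, -0.046 and -0.10, with the GC trend removed as well at -0.079, -0.012 and -0.073, and without the library of highest GC slope in each group at -0.064, -0.072 and -0.14. With each library left out Ddx3x ran from -0.036 to 0.19 and Eif2s3x from -0.058 to 0.28. The cause was not tested.

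Among settings added after seeing the data, scrambled 1 against water gave 2 calls with Xist as a covariate and 3 to 39 with each library left out, beside 17. Scrambled 1 against untreated gave 6 to 35 with each library left out, beside 43. Scrambled 2 gave 0 to 1 against water and 0 to 1 against untreated, with 1 call in each without scrambled 2 replicate 4 and 1 against untreated without untreated replicate 4. The difference in intronic share was 1.51 percentage points with unique reads and 1.13 to 2.05 with each library left out, at p from 0.0571 to 0.229 in the exact permutation test. With 4 libraries a group the SE of the log2 fold change had a median of 0.0940 over genes, which limits calls to differences well above it.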
